A study of Solanum lycopersicum with 12 samples.

Results

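Proteinase inhibitors I and II are small proteins that block serine proteinases. In tomato leaves they accumulate after wounding or insect feeding, when systemin and jasmonate signals switch on their genes, and they hamper protein digestion in the insect gut. Inhibitor I acts mainly on chymotrypsin-like enzymes, while inhibitor II blocks both trypsin and chymotrypsin. The genes described here are the wound-type inhibitor I loci on chromosome 9 and inhibitor II loci on chromosome 3, taken by locus identifier. Of 10 listed identifiers, 9 were found among the 34688 loci of the table, 4 for inhibitor I and 5 for inhibitor II. The remaining one, Solyc09g089510, was not analysed here.

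Leaves of tomato seedlings, cultivar Moneymaker, were sprayed with 300 µM piperonylic acid (PA) in 0.1% Tween 20 or with a mock solution. PA inhibits cinnamate 4-hydroxylase, an early enzyme of the phenylpropanoid pathway. Sprays were given 7 and 14 days after transplantation and plants were harvested on day 15. Shoots and roots were sequenced apart, giving 12 libraries, with 3 pools of 4 plants for each tissue under each spray. The roots therefore came from plants sprayed on the leaves. All groups share the cultivar and the harvest day, and no group was left unsprayed, so levels in undisturbed plants were not measured.

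Values are normalized counts from sequencing of transcript 3′ ends, in which reads per transcript do not scale with transcript length, and no length correction was made. Depth was 4214169 to 7386030 reads per library. In shoots mock replicate 1 lay far from the rest on the leading principal component, at 51.1 against -22.4 to 3.61 for the other libraries. The labelled tissues were checked with 9 loci listed as photosynthesis genes from general knowledge, since no source used here pairs the identifiers with names. Their summed level was 127238 to 154910 normalized counts in the shoot libraries and 463.7 to 1097 in the root libraries, and the 8 that were tested were all lower in mock root than in mock shoot. Members of a cluster are similar in sequence as a family. The sources used here do not say how reads matching more than one of them were assigned, so the value of a single member carries that uncertainty.

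The comparison of mock roots with mock shoots set the level of each inhibitor gene before PA. The inhibitor I loci were shoot genes, and the inhibitor II cluster was split between the tissues. In whole shoots or roots, fewer cells with a transcript and less transcript per cell cannot be told apart. All 9 members differed between mock root and mock shoot, 3 higher in root and 6 higher in shoot (limma, adjusted p below 0.05), where 66.1% of all 15317 tested loci differed. By the same test root exceeded shoot at 33.6% of all loci and shoot exceeded root at 32.5%. The groups did not overlap for any of the 9, as was the case for 36.8% of all loci in the direction of root and 35.1% in the direction of shoot.

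Solyc09g084490.5 was the most abundant inhibitor locus in shoots, with 7694, 7088 and 12942 normalized counts in mock replicates 1 to 3. Its mean of 9241 ± 3219 (SD, n = 3) placed it at rank 71 of all loci in mock shoot. It was also the one inhibitor I locus with a sizeable level in roots, at 748.0, 235.1 and 515.0 in the mock libraries. The difference was 4.31 on the log2 scale, or 19.8-fold, with a 95% interval of 10.9 to 35.8 (limma adjusted p = 5.94e-06). The root level of this locus was 5.40% of its shoot level in mock plants, whereas the summed photosynthesis list stood at 0.374%.

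Solyc09g084470.3 gave 5384, 3508 and 7986 normalized counts in the mock shoot libraries and 0, 6.77 and 3.49 in the mock root libraries. It was nearly confined to shoots, with a root level of 0.0607% of the shoot level. Solyc09g084480.3 gave 4135, 3774 and 6007 in mock shoot and 34.1, 15.2 and 55.8 in mock root, a root level of 0.755% of the shoot level. Solyc09g089530.3 gave 3252, 2985 and 5025 in mock shoot and 0, 1.69 and 0.871 in mock root. The last of these rested on 3 reads over the mock root libraries, so its fold depends on counting. The ratio of summed reads per size factor was 4141, with an exact 95% counting interval of 1417 to 20084.

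**Figure D1:**
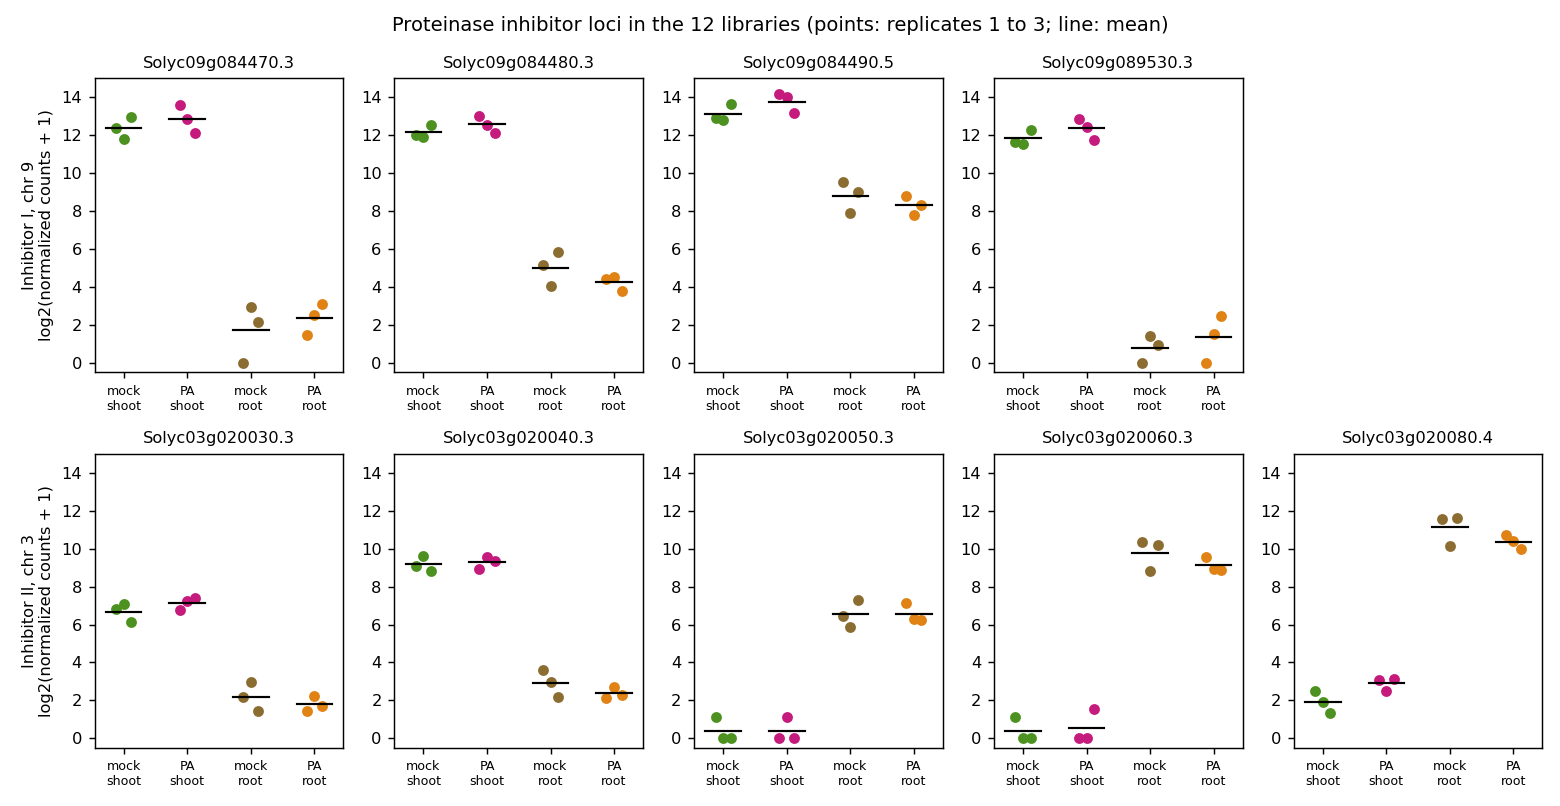
Each panel shows 1 inhibitor locus as log2(normalized counts + 1) in the 12 libraries, with points for replicates 1 to 3 and a line for the group mean (inhibitor I in the upper row, inhibitor II in the lower). The 4 inhibitor I loci and the first 2 inhibitor II loci sit high in shoot, and the last 3 inhibitor II loci sit high in root.

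In the inhibitor II cluster the shoot side was held by 2 loci. Solyc03g020040.3 gave 545.0, 773.5 and 462.3 normalized counts in mock shoot and 11.4, 6.77 and 3.49 in mock root. Solyc03g020030.3 was lower, with 111.1, 134.4 and 70.3 in mock shoot and 3.50, 6.77 and 1.74 in mock root. The mock shoot libraries of these loci did not overlap with their mock root libraries, with log2 differences of -6.26 and -4.49 for root minus shoot (limma adjusted p = 2.43e-07 and 7.48e-06).

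The root side was held by the other inhibitor II loci. Solyc03g020080.4 gave 3067, 1149 and 3208 normalized counts in mock root and 4.58, 2.76 and 1.56 in mock shoot. With a mean of 2475 ± 1150 (SD, n = 3) it was the most abundant inhibitor locus in roots, at rank 322 of all loci there. Solyc03g020060.3 gave 1317, 461.0 and 1173 in mock root, and Solyc03g020050.3 gave 87.5, 58.4 and 155.1. Each of these 2 loci had 1 read in all of mock shoot, against 3396 and 347 reads in mock root. Their ratios of summed reads per size factor were 2542 and 259.7, with exact 95% counting intervals of 456 to 100430 and 46.3 to 10288. Those intervals cover counting error only.

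Among the chromosome 3 members in identifier order, the switch of tissue fell between Solyc03g020040.3 and Solyc03g020050.3. Solyc03g020010.1, which comes before the members and is not one of them, was also higher in root. It gave 156.6, 194.5 and 200.4 normalized counts in mock root and 9.16, 3.68 and 9.37 in mock shoot. Its log2 difference was 4.54 (limma adjusted p = 1.28e-06). Solyc03g020070.5, a locus outside the member list that lies between Solyc03g020060.3 and Solyc03g020080.4 by identifier, had the same side as its neighbours. It gave 1026, 367.1 and 1104 normalized counts in mock root and 4.58, 8.29 and 3.12 in mock shoot, a log2 difference of 6.97 (limma adjusted p = 5.18e-07). The identifier stretches around the members held 19 other loci, of which 11 were tested between mock tissues, with 3 higher in root and 4 higher in shoot.

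**Figure D2:**
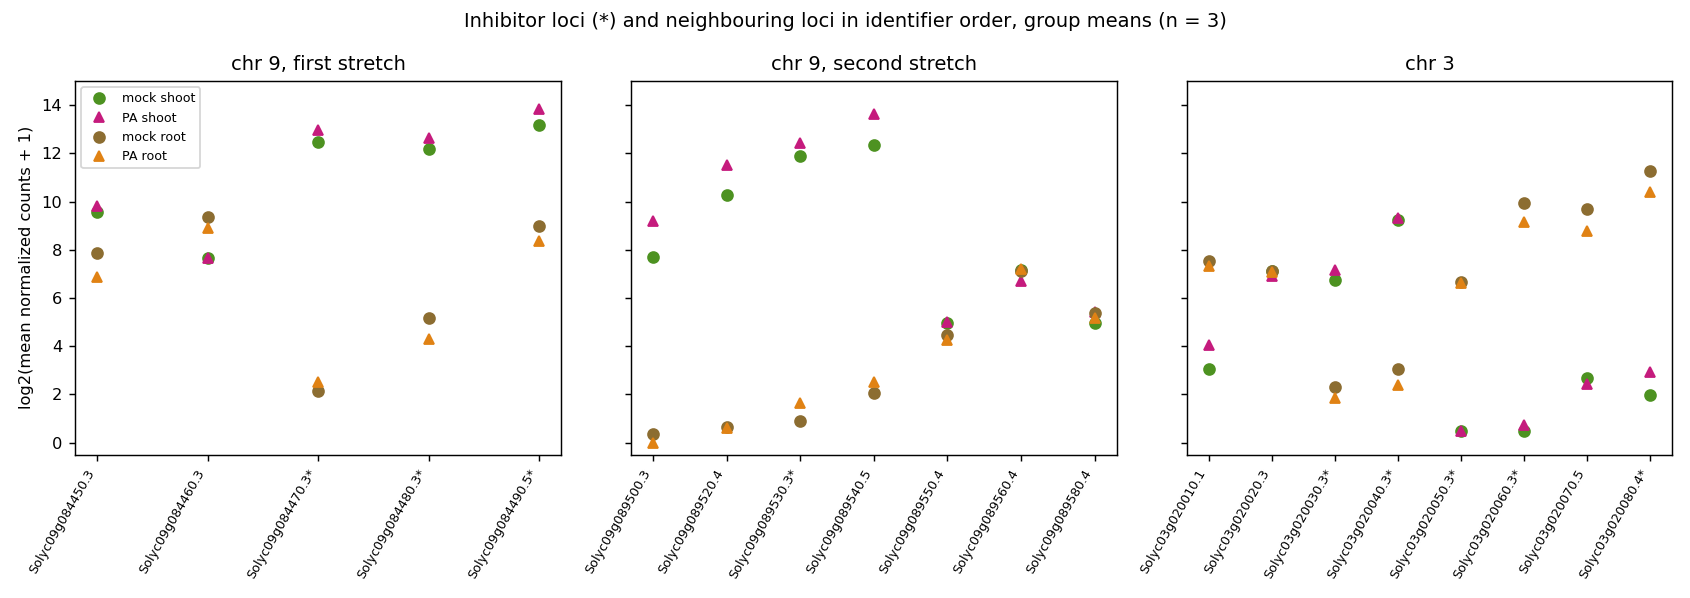
Group means (n = 3) as log2(mean normalized counts + 1) of inhibitor loci, marked with a star, and of neighbouring loci that reached 10 normalized counts in at least 1 library, in identifier order and not to genomic scale. Among the chromosome 3 members the shoot and root symbols change places between Solyc03g020040.3 and Solyc03g020050.3. The neighbour Solyc03g020010.1, which comes before the members, is also higher in root.

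The order of levels in mock shoot ran from Solyc09g084490.5 over Solyc09g084470.3, Solyc09g084480.3 and Solyc09g089530.3 to Solyc03g020040.3 and Solyc03g020030.3. Neighbours within the inhibitor I part of that order overlapped in their library values, and the inhibitor II loci lay apart from them and from each other. In mock root the order was Solyc03g020080.4, Solyc03g020060.3, Solyc09g084490.5, Solyc03g020050.3 and Solyc09g084480.3, where Solyc03g020060.3 overlapped with the loci next to it on both sides and the later ones in this order stood apart from each other. The other 4 loci had means of 0.854 to 7.21 normalized counts in mock root. The share of all reads taken by the inhibitor I loci together was 0.345 ± 0.122% in mock shoot, and in mock root it was 0.01003 ± 0.00485% (SD, n = 3). For the inhibitor II loci it was 0.0104 ± 0.00305% in mock shoot, and in mock root it was 0.0665 ± 0.0301%.

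The next comparison asked whether PA changed the inhibitor genes in shoots. None of the 6 inhibitor loci tested there passed. All 6 estimates were above 0, as were 47.0% of all tested loci. The inhibitor I loci moved together from library to library, as described below, so these signs are not independent of each other. By limma at an adjusted p below 0.05, 0 of 6 were called, where 1.58% of all 14505 tested loci were called. At an unadjusted p below 0.05 limma gave 1 of the 6, edgeR 3 and DESeq2 0, against 14.1% of all loci for limma, and neither other tool called any after adjustment. Here and below, the share of all loci at that level was taken for limma only. The counts from edgeR and DESeq2 therefore have no share from the same test beside them. The other 3 members had means under 10 normalized counts in shoot and were not tested. The median log2 fold change of the 6 was 0.48, against -0.02 over all tested loci.

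Solyc09g084490.5 gave 18232, 16564 and 9229 normalized counts in PA shoot replicates 1 to 3, against the 7694, 7088 and 12942 of mock. PA replicates 1 and 2 lay above every mock library, while PA replicate 3 lay below mock replicate 3. The log2 fold change was 0.66 (SE 0.25), and the 95% interval of the fold ran from 1.08 to 2.31 (limma adjusted p = 0.256, unadjusted p = 0.0222). The limma, edgeR and DESeq2 alternatives gave adjusted p-values of 0.0549 to 0.592.

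Solyc09g084470.3 gave 12419, 7450 and 4511 normalized counts in PA shoot, and its groups overlapped. Solyc09g084480.3 gave 8372, 5996 and 4465, and Solyc09g089530.3 gave 7533, 5615 and 3413. For all of these the highest library was PA replicate 1 and PA replicate 3 lay inside the mock range. Their log2 fold changes were 0.49, 0.42 and 0.52, with 95% intervals for the fold of 0.870 to 2.27, 0.976 to 1.83 and 0.993 to 2.08 (limma adjusted p = 0.528, 0.395 and 0.365). When 1 library was left out, the log2 fold changes ran from 0.12 to 0.85, from 0.19 to 0.64 and from 0.26 to 0.83.

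Of the inhibitor II loci tested in shoot, Solyc03g020030.3 had an estimate like those of inhibitor I and Solyc03g020040.3 the lowest of the 6. Solyc03g020030.3 gave 107.9, 150.0 and 170.7 normalized counts in PA shoot, a log2 fold change of 0.46 (limma adjusted p = 0.395). Solyc03g020040.3 gave 490.4, 770.7 and 653.8, a log2 fold change of 0.11 with a 95% interval for the fold of 0.818 to 1.43 (limma adjusted p = 0.840). For none of the 6 tested loci did the mock and PA shoot groups stand fully apart, whereas PA was wholly above mock at 8.15% of all tested loci and wholly below at 11.6%. Without mock shoot replicate 1, the library that stood apart, 0 of 6 were called, where 383 of all 14541 tested loci were called. The log2 fold change of Solyc09g084490.5 was then 0.56.

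Of the members below the test's filter in shoot, Solyc03g020080.4 gave 4.58, 2.76 and 1.56 normalized counts in mock and 7.36, 4.61 and 7.76 in PA. Its groups did not overlap, by a margin of less than 1 read. The other two, Solyc03g020050.3 and Solyc03g020060.3, had 0 to 1.94 in all 6 shoot libraries, with 3 reads being worth 2.76 to 4.69 normalized counts there.

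The same comparison was made in roots of the leaf-sprayed plants. None of the 5 inhibitor loci tested there passed. Of the 5 estimates 4 were below 0, where 56.3% of all tested loci were above 0. The 5 loci shared their lowest mock library, as described below, so these signs too are not independent of each other. By limma 0 of 5 were called at an adjusted p below 0.05, where 1.58% of all 14645 tested loci were called. At an unadjusted p below 0.05 limma gave 1 of the 5, edgeR 3 and DESeq2 1, against 12.7% of all loci for limma, and neither other tool called any after adjustment. The median log2 fold change of the 5 was -0.68, against 0.03 over all tested loci.

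Solyc03g020080.4 gave 1686, 1347 and 1005 normalized counts in PA root, against 3067, 1149 and 3208 in mock root. Mock replicates 1 and 3 lay above every PA library, and mock replicate 2 lay among them. The log2 fold change was -0.77 (SE 0.32) with a 95% interval for the fold of 0.360 to 0.957 (limma adjusted p = 0.337, unadjusted p = 0.0352). Without mock root replicate 2 the log2 fold change was -1.25 and this locus passed (limma adjusted p = 0.0441) in a fit that called 14 of 14648 loci, the single call of a member in PA against mock over all alternatives. Over the alternatives for this locus the limma, edgeR and DESeq2 adjusted p was 0.0441 to 0.666.

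Solyc03g020060.3 gave 755.8, 492.1 and 462.9 normalized counts in PA root against 1317, 461.0 and 1173 in mock root. Again mock replicate 2 was the low one, and the groups overlapped. The log2 fold change was -0.68 (limma adjusted p = 0.420). Solyc03g020050.3 gave 138.3, 78.3 and 73.9 against 87.5, 58.4 and 155.1. Its log2 fold change was 0.00 with a 95% interval for the fold of 0.618 to 1.63 (limma adjusted p = 0.997). A change of a size within that interval is not excluded.

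The inhibitor I loci measurable in root followed a like course. Solyc09g084490.5 gave 448.4, 218.4 and 318.3 normalized counts in PA root, a log2 fold change of -0.51 (limma adjusted p = 0.615). Solyc09g084480.3 gave 20.5, 22.1 and 12.9, a log2 fold change of -0.74 (limma adjusted p = 0.501). Their mock values were given above, and mock replicate 2 was the lowest mock library for both. When 1 library was left out, the log2 fold change ran from -0.98 to -0.14 for the first of these and from -1.23 to -0.32 for the second. For no tested inhibitor locus did the groups stand fully apart in root, whereas PA was wholly above mock at 10.2% of all tested loci and wholly below at 7.26%. The 4 members under the filter had 0 to 11.4 normalized counts in every root library.

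**Figure D3:**
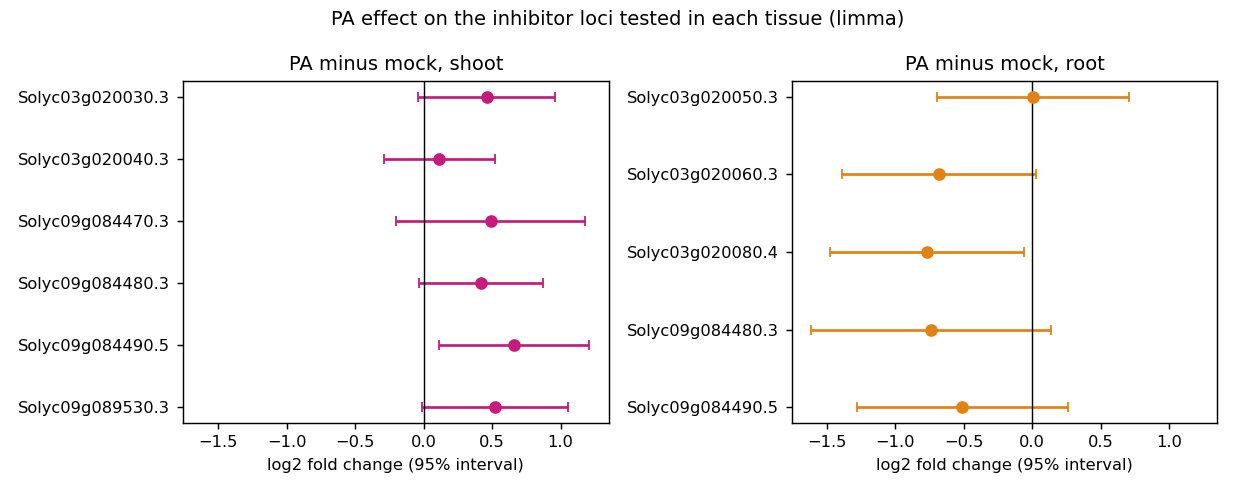
Log2 fold change of PA against mock for the inhibitor loci tested in shoot (6 loci, left) and root (5 loci, right), with 95% intervals from limma. All shoot estimates lie above 0 and all root estimates but that of Solyc03g020050.3 lie below 0, and no locus passed after adjustment.

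A difference in PA effect between shoot and root could be tested for the 2 loci with at least 10 normalized counts in each, Solyc09g084480.3 and Solyc09g084490.5. The root effect was lower than the shoot effect by log2 differences of -1.16 and -1.17, with standard errors of 0.50 and 0.52 (limma adjusted p = 0.356 and 0.385). Neither passed, so 0 of 2 were called, against 0.377% of all 13010 tested loci. Both had an unadjusted p below 0.05 with limma, edgeR and DESeq2, as 12.1% of all loci did with limma, and edgeR and DESeq2 called neither after adjustment.

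The inhibitor loci varied widely between pools of the same group. In shoot the residual SD between replicates was 0.35 to 0.67 on the log2 scale over the 6 members, against a median of 0.20 over all tested loci. In root it was 0.61 to 0.70 over the 5 members, against a median of 0.18. Set beside loci within 0.5 of the same mean log2 level, each member had a larger SD than 95.1 to 98.8% of them in shoot and 98.1 to 99.9% in root.

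**Figure D4:**
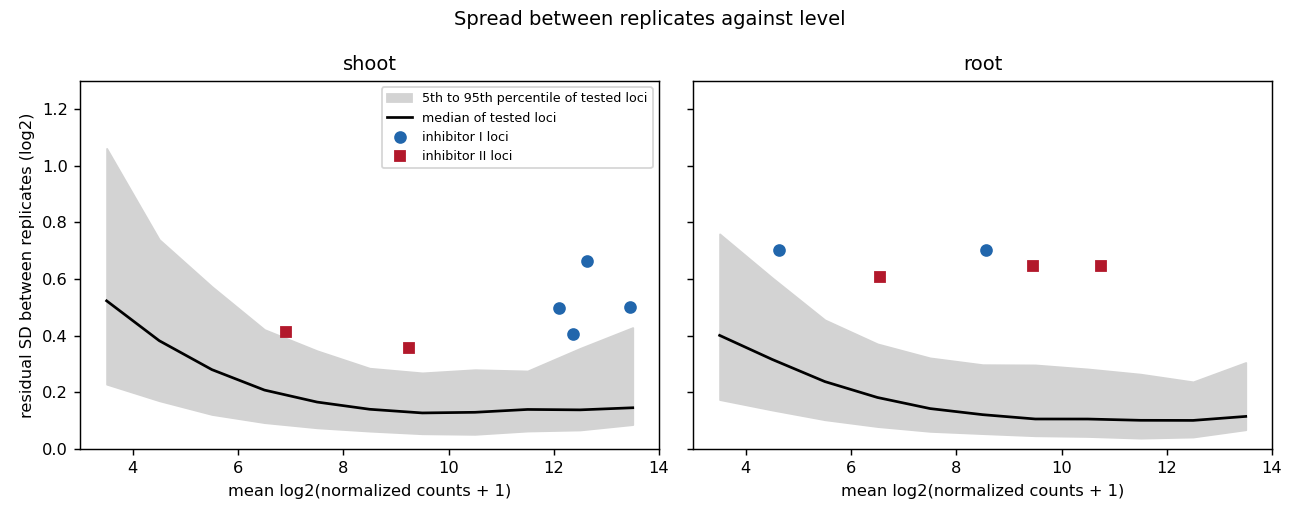
Residual SD between replicates on the log2 scale against the mean log2(normalized counts + 1), with the median and the 5th to 95th percentile of all tested loci per unit of level. Of the 11 plotted member values, from 0.35 to 0.70, all lie well above the median line. They lie above the grey band in root and in shoot, with Solyc03g020030.3 in shoot close to its upper edge.

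Among the inhibitor I loci the order of libraries was the same for all 4 members in shoot. Mock replicate 3 was highest and mock replicate 2 lowest, and PA replicate 1 was highest and PA replicate 3 lowest. The same order held for 2.19% of all 14505 tested loci. It was also the order of rising depth, from 4214169 reads in mock replicate 3 over 6261271 to 7127537 in mock replicate 2, and from 5465342 in PA replicate 1 over 5676821 to 6736313 in PA replicate 3. The part of depth in these levels was not tested. The ratio of Solyc09g084490.5 to Solyc09g089530.3 ran only from 2.37 to 2.95 over the 6 shoot libraries, while each of the loci spanned more, 2.57-fold and 2.52-fold.

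The inhibitor II loci did not follow the inhibitor I loci in shoot. Both Solyc03g020030.3 and Solyc03g020040.3 were highest in mock replicate 2 and lowest in mock replicate 3, the reverse of inhibitor I, and lowest in PA replicate 1. In root, Solyc03g020060.3 and Solyc03g020080.4 kept a ratio of 0.365 to 0.461 over the 6 libraries, while they spanned 2.86-fold and 3.19-fold. Mock root replicate 2 was the lowest mock library for each of the 5 loci tested in root. Depth in the mock root libraries was 6158777 to 6262275 reads.

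**Figure D5:**
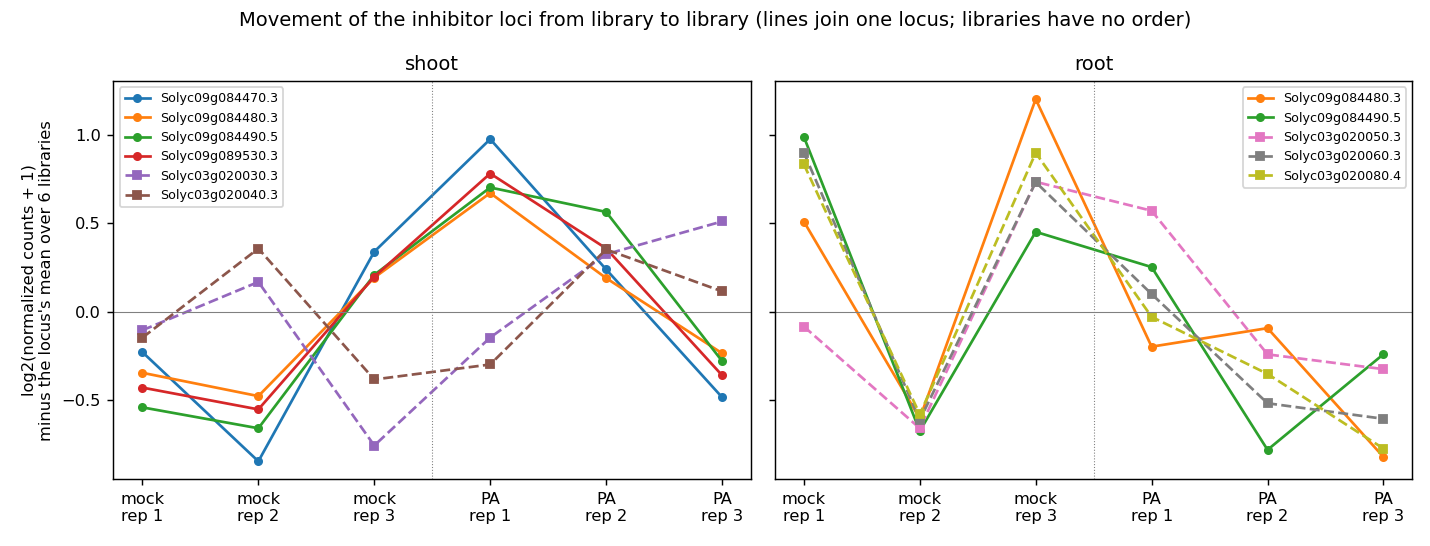
Log2(normalized counts + 1) of each inhibitor locus minus its mean over the 6 libraries of a tissue, for shoot (left) and root (right); solid lines are inhibitor I and dashed lines inhibitor II, and lines only join the points of a locus. The 4 inhibitor I lines run together in shoot with the inhibitor II lines apart from them, and mock replicate 2 is low for all 5 loci in root.

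The loci closest in pattern were sought by Pearson correlation of log2(value + 1) among loci with a mean of at least 50. For Solyc09g084490.5 over the 6 shoot libraries, which share the depth order above, the closest loci outside the member list were Solyc10g084430.2 at 0.998, Solyc09g008670.3 at 0.996, Solyc02g067750.4 at 0.993, Solyc01g091170.3 at 0.991 and Solyc09g089500.3 at 0.990. The members Solyc09g089530.3, Solyc09g084480.3 and Solyc09g084470.3 were at 0.978, 0.956 and 0.909, and 30 loci outside the list were closer than the second of these. Solyc09g008670.3 was high in the same libraries, with 6326, 5519 and 12035 normalized counts in mock shoot and 22528, 17698 and 8363 in PA shoot. Over all 12 libraries, which fall into 2 tissues far apart in level, the closest was Solyc09g083435.1 at 0.991.

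For Solyc03g020080.4 over the 6 root libraries, a choice of libraries made after seeing the levels, the neighbouring Solyc03g020070.5 was closest at 0.987 and the member Solyc03g020060.3 stood at 0.979. Over all 12 libraries Solyc01g067370.3 was closest at 0.996. Over the 6 shoot libraries Solyc06g007670.4 was closest to Solyc03g020080.4, at 0.990. There Solyc03g020080.4 itself had only 1.56 to 7.76 normalized counts, so that ranking rests on few reads.

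Some loci next to the inhibitor I members moved more between mock and PA shoot than the members, without passing. Solyc09g089540.5 gave 2508, 4527 and 8472 normalized counts in mock shoot and 17195, 14821 and 6419 in PA shoot, a log2 fold change of 1.36 (SE 0.39; limma adjusted p = 0.116). Solyc09g089520.4 gave 814.1, 1025 and 1862 against 3942, 3720 and 1178, a log2 fold change of 1.16 (limma adjusted p = 0.181). Solyc09g089500.3 gave 107.6, 115.1 and 392.0 against 942.9, 590.7 and 209.5, a log2 fold change of 1.52 (limma adjusted p = 0.177). In all 3 loci PA replicate 3 lay inside the mock range. Without PA shoot replicate 3 they passed with log2 fold changes of 1.80, 1.72 and 2.13 (limma adjusted p = 0.0356, 0.0118 and 0.0377). Without mock shoot replicate 3, Solyc09g089540.5 and Solyc09g089500.3 passed too (limma adjusted p = 0.0139 and 0.0173). Those fits called 178 of 14489 and 285 of 14486 loci. None of the 3 passed without PA shoot replicate 1 or 2 (limma adjusted p of 0.350 to 0.534). The same held without mock shoot replicate 1 or 2 (limma adjusted p of 0.0959 to 0.347). These 3 loci were singled out after their values were seen, and no source used here names their products. Solyc09g089560.4, in the same identifier stretch, went the other way. It gave 146.6, 127.1 and 148.4 normalized counts in mock shoot and 115.3, 99.2 and 95.1 in PA shoot. Its log2 fold change was -0.44 (limma adjusted p = 0.181).

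Of the 19 neighbouring loci, limma called 0 of 10 tested in shoot, 0 of 8 in root and 0 of 7 for the difference between tissues. At an unadjusted p below 0.05 limma gave 5, 2 and 3, against 14.1%, 12.7% and 12.1% of all loci. Those in shoot were the loci described above and, on chromosome 3, Solyc03g020010.1, with a log2 fold change of 1.07 (limma adjusted p = 0.305). Only Solyc09g089560.4 among them was lower with PA. After adjustment edgeR called none of the 19 neighbouring loci and DESeq2 called 1, lower in root. That locus, Solyc09g084450.3, gave 293.1, 121.8 and 272.7 normalized counts in mock root and 124.7, 95.8 and 122.6 in PA root, a log2 fold change of -0.91 (limma adjusted p = 0.143, DESeq2 adjusted p = 0.0028). Without mock root replicate 2 it passed in limma as well, as did Solyc03g020070.5, with log2 fold changes of -1.31 and -1.30 (limma adjusted p = 0.0282 for both). That fit called 14 of 14648 loci. Neither locus passed when any other single root library was left out (limma adjusted p of 0.153 to 0.664).

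Loci placed on wound and jasmonate lists from general knowledge of tomato, since no source used here annotates them, were counted as groups in the same fits. The lists were chosen with earlier results of these data known. Their counts and medians are therefore not independent of these data and are given as description only. Of 10 loci listed as late wound proteins, 8 were tested in shoot and 7 in root, and limma called none in either. All 8 had an unadjusted p below 0.05 in shoot with limma and with edgeR, and 6 with DESeq2, where limma gave 14.1% of all loci such a p, and neither other tool called any after adjustment. In root limma and edgeR gave 4 of the 7 an unadjusted p below 0.05, against 12.7% of all loci in limma, and DESeq2 called 2 after adjustment, both lower. The median log2 fold change of this list was 1.09 in shoot and -0.36 in root. Of the 5 loci closest to Solyc09g084490.5 in shoot, 2 stand on this list.

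Of 13 loci listed as other proteinase inhibitors, 7 were tested in each tissue, and limma called 1 higher in shoot and 1 lower in root, with median log2 fold changes of 0.43 and -0.20. Of 5 loci listed for jasmonate synthesis, limma called 1 lower in shoot and 1 lower in root, with medians of -0.08 and -0.04. Of 13 listed for jasmonate signalling, 10 were tested in each tissue and limma called none. The medians of that list were -0.15 and -0.61, with 2 and 5 loci at an unadjusted p below 0.05, and edgeR and DESeq2 each called 1 lower in root and none in shoot. The single locus listed as the systemin precursor had log2 fold changes of -0.09 and -0.69, with none of the 3 tools calling it and no unadjusted p below 0.05. The photosynthesis list had 0 calls of 8 in shoot and 0 of 4 in root by any of the 3 tools, with 0 and 1 at an unadjusted p below 0.05 in limma.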

How the data were processed

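Per the submitters' processing notes, FastQC 0.11.8, Trimmomatic 0.38, STAR 2.6.1d and DESeq2 were used. The sources used here name no counter, build or annotation. The deposited table holds a normalized signal per locus, called normalized counts by the authors. Divided by the column's smallest value above 0, 100% of values in each column came out whole (tolerance 0.01), which gave back the reads. Groups and replicate numbers came from sample titles. No label says whether pools were grown separately, and p-values cover only the spread among pools, which may be technical.

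The test was limma-trend (limma 3.58.1, R 4.3.3) on log2(value + 1), a scale that understates changes of low loci, two-sided, adjusted by Benjamini-Hochberg over all loci with a mean of at least 10 in the fit (in each tissue for the interaction), threshold 0.05. Whole reads were also tested with edgeR 4.0.16 (quasi-likelihood) and DESeq2 1.42.0. Fits were tested on simulated counts that had the same dispersion at every locus. That does not give their power for loci as variable as the members. Other alternatives were pseudocounts of 0.5 and 5, no filter or one of 50, quantile scaling, a replicate block and leaving out each library.

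All members are named; so were to be neighbours that passed with PA, of which the test above gave none, and the 5 loci closest in pattern; further neighbours were chosen after their values were seen. Members and lists were chosen with earlier results of these data known. The reference table, of another assembly, matched 0 identifiers. Figures used matplotlib 3.10.9 in Python 3.11.15.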

Additional observations from a re-analysis of the deposited data

How the results depend on the processing

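All 9 members kept their side between mock tissues, past the threshold, in each of the 14 alternatives. Quantile scaling moved the median of all loci there by 0.13 on the log2 scale and no median by as much in the other comparisons. In shoot and for the difference between tissues 0 members passed in any alternative, and the lowest adjusted p of a member was 0.0549 and 0.122. In root the count of members that passed was 0 to 1 when 1 library was left out, with the 1 without mock root replicate 2, where 14 of 14648 loci were called, and 0 in all other alternatives. When 1 library was left out, the ends of the range of log2 fold changes lay over 1.5 times apart, without a change of sign, for further members. In shoot the range was 0.20 to 0.66 for Solyc03g020030.3 and 0.47 to 0.96 for Solyc09g084490.5. In root it was -1.16 to -0.40 for Solyc03g020060.3 and -1.25 to -0.51 for Solyc03g020080.4. Among ranges given earlier, Solyc09g084470.3 in shoot ran from 0.12 to 0.85 and Solyc09g084490.5 in root from -0.98 to -0.14. Estimates near 0 changed sign. That of Solyc03g020050.3 in root was -0.083 with edgeR, -0.078 with DESeq2, and -0.32 to 0.37 without 1 library (-0.04 and -0.32 without mock root replicates 1 and 2, -0.28 without PA root replicate 1). That of Solyc03g020040.3 in shoot ran from -0.049 to 0.32 when 1 library was left out, with -0.034 when that was PA shoot replicate 2. The cause was not tested.

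Between mock and PA shoot, deviations from the group means correlated at 0.0335 to 0.103 for the same replicate number and -0.123 to 0.0368 for different numbers. In root the values were -0.0706 to 0.109 and -0.180 to 0.120, and between mock tissues 0.0447 to 0.0866 and -0.0633 to 0.0188. Each mock shoot library correlated best with the PA shoot and mock root libraries of its own number. PA shoot replicate 3 correlated best with mock shoot replicate 2. No label gives the numbers as pairs, so the main fits did not pair them, and whether they are pairs was not settled. With a replicate block 0 members passed in shoot, 0 in root, 0 for the difference between tissues and 9 between mock tissues, while calls over all loci went from 229 to 376 in shoot and from 232 to 441 in root. The neighbouring Solyc09g084450.3 also passed in root with the block (limma adjusted p = 0.0169). The precision is limited by 3 pools a group and by the wide spread of these loci, and for members under 10 normalized counts by depth too.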
